A study of Mus musculus with 16 samples.

Results

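The 10 genes Apoe, C1qa, C1qb, C1qc, Cd68, Lyz2, Mrc1, Csf1r, Adgre1 and Mgl2, which tissue macrophages express, were followed by name in sorted CD4-positive T cells of the mouse uterus and its draining lymph node. They were taken by symbol, matched to the gene identifiers of a table of 49585 genes on the GRCm38 build, and all 10 passed the filter on low counts that left 30096 genes for testing. The study compared 4 groups of 4 RNA-seq libraries, all from mice of BALB/c background carrying a Foxp3 IRES-GFP reporter, with no age given. Pregnant uterine Treg were sorted as CD4+Foxp3+CD25- from the uterus at days 6 to 8 of pregnancy by the source label, although the titles of 3 of the 4 libraries give a later last day. Non-pregnant uterine Treg were sorted as CD4+Foxp3+CD25- from the uterus of non-pregnant mice, and lymph node Treg as CD4+Foxp3+CD25+ from para-aortic nodes of non-pregnant mice. CD4conv, conventional T cells, were sorted as CD4+Foxp3- from the non-pregnant uterus. Each library came from a pool of mice, 3 to 8 where they were pregnant and 20 where they were not, so a value describes a pool. Pregnant uterine Treg and CD4conv were sequenced in batch 1, and non-pregnant uterine Treg and lymph node Treg in batch 2.

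Macrophages are phagocytes that live in nearly every tissue and depend on signals through the receptor encoded by Csf1r. In the uterus they clear debris and take part in remodelling around implantation. T cells are not known as a main source of these gene products: C1qa, C1qb and C1qc encode the chains of C1q, the recognition unit of the classical complement pathway, Apoe encodes a lipid carrier and Lyz2 a bacteria-digesting lysozyme. Cd68 encodes a glycoprotein of lysosomes and endosomes that dendritic cells also carry. Mrc1 encodes the mannose receptor, Mgl2 a lectin for galactose-type sugars found on macrophages and on some dendritic cells, and Adgre1 the surface molecule F4/80. In a bulk library, fewer cells of a type and less RNA per cell cannot be told apart.

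Promoter windows of 4 genes are shown because C1qb and C1qc are neighbours that rank the CD4conv libraries alike, and because Cd68 and Mgl2 were the genes whose uterine Treg libraries all lay below all CD4conv libraries. They come from RefSeq (GRCm38.p6), end before the annotated transcript and are written on the strand of the gene, 5′ to 3′. Capitals mark GAGGAA, or TTCCTC where it lies on the other strand, a core that the myeloid transcription factor PU.1 is known to bind.
C1qb promoter, chr4:136886201-136886450, minus strand: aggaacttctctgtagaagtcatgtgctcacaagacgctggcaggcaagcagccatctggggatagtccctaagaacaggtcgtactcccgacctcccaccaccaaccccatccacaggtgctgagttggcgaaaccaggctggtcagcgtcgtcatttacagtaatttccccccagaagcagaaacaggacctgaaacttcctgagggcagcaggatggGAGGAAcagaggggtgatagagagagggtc
C1qc promoter, chr4:136893066-136893164, minus strand: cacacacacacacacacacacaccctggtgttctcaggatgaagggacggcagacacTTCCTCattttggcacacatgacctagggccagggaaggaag
Cd68 promoter, chr11:69666171-69666420, minus strand: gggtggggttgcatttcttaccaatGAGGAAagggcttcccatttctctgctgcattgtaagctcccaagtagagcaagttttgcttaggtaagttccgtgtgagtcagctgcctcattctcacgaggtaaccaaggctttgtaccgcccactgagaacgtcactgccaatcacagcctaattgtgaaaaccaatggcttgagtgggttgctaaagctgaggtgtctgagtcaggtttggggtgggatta
Mgl2 promoter, chr11:70130107-70130328, plus strand: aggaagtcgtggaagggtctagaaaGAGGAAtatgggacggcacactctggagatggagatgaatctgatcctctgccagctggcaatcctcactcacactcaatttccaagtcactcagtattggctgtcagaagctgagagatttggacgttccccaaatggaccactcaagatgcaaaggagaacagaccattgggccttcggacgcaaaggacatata
Windows, 9 in all, were found for 7 of the 10 genes. GAGGAA stood on either strand in 7 of these 9 windows, which belong to 6 of the 7 genes, all but Lyz2. It stood in 23.3% of 32851 promoter windows of 250 bases. The printed windows of C1qc and Mgl2 are shorter, at 99 and 222 bases. TTGCNNAA, a core bound by C/EBP factors that does not overlap it, stood in 1 of the 9, for Cd68, and in 9.56% of all windows. A match of these letters is a description of the window.

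The genes lie on 7 chromosomes of GRCm38 in the GENCODE M21 annotation. C1qb (chromosome 4, 136880129 to 136886187), C1qc (136889804 to 136893065) and C1qa (136895917 to 136898803) are neighbours on the minus strand within 18675 bp, with gaps of 3616 and 2851 bp. Apoe lies on chromosome 7 (19696109 to 19699188), Lyz2 on chromosome 10 (117277331 to 117282321) and Cd68 on chromosome 11 (69664213 to 69666153), all on the minus strand. Mgl2 lies on the plus strand of chromosome 11 (70130329 to 70137550), Mrc1 on chromosome 2 (14229392 to 14332057), Adgre1 on chromosome 17 (57358691 to 57483527) and Csf1r on chromosome 18 (61100598 to 61132149). Csf1r overlaps Hmgxb3 on the other strand and the small RNA gene Mir6983, and Mrc1 overlaps Mir511. The library kits keep no strand, so reads of such pairs cannot be told apart. Lyz2 and Mgl2 each have a closely similar relative, Lyz1 and Clec10a, and how reads shared by such a pair were divided is not stated, so both levels are uncertain to that extent.

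Total counts ran from 1718558 (lymph node Treg 3) to 15190212 (pregnant uterine Treg 3); levels are given as CPM, counts scaled to 1000000 in each library. Counts in 1429 olfactory and vomeronasal receptor genes, which these cells do not use, gave each library a background per base of exon. Spread over all exons, that background made up 8.68% (pregnant uterine Treg 3) to 53.5% (pregnant uterine Treg 4) of the counts, and it exceeded 30% in pregnant uterine Treg 2 and 4, non-pregnant uterine Treg 3 and 5 and lymph node Treg 3. Foxp3, which defines the Treg sort, stood at 192 to 814 CPM in pregnant uterine Treg, 227 to 714 CPM in non-pregnant uterine Treg, 407 to 784 CPM in lymph node Treg and 0.50 to 3.26 CPM in CD4conv, as the labels have it. Il2ra, which encodes CD25, stood at 76.7 to 190.2 CPM in pregnant uterine Treg, 54.4 to 125 CPM in non-pregnant uterine Treg, 221 to 367 CPM in lymph node Treg and 17.4 to 27.2 CPM in CD4conv. The summed level of 13 T cell markers was 1853 to 7135 CPM in pregnant uterine Treg, 2735 to 7528 CPM in non-pregnant uterine Treg, 5096 to 6888 CPM in lymph node Treg and 2065 to 5057 CPM in CD4conv.

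The 10 genes were on average highest in CD4conv, and there they differed strongly from pool to pool. Their summed level was 61.3 to 332 CPM in pregnant uterine Treg, 172 to 1036 CPM in non-pregnant uterine Treg, 31.1 to 89.6 CPM in lymph node Treg and 153 to 10083 CPM in CD4conv. The 4 CD4conv libraries stood at 998 (replicate 1), 6333 (replicate 2), 10083 (replicate 3) and 153 CPM (replicate 5), so the highest was 65.8 times the lowest. CD4conv 5 lay within the range of pregnant uterine Treg and below every non-pregnant uterine Treg library. CD4conv 3 held the group's highest level of 9 of the 10 genes, CD4conv 2 that of C1qa, and CD4conv 5 the lowest level of all 10. By group mean, CD4conv came first, then non-pregnant uterine Treg, pregnant uterine Treg and lymph node Treg for 9 of the 10 genes, and for Mgl2 non-pregnant uterine Treg came last. Neighbours in that order overlapped except CD4conv and the group below it for Cd68 and Mgl2, and pregnant uterine Treg and lymph node Treg for C1qa and C1qb. Pregnant uterine and lymph node Treg lie in different batches and were not tested against each other. The share of all genes without overlap was not counted for them. On log2(CPM + 1), the median SD of the genes within CD4conv was 2.42, against 0.67 over all genes tested, while in the 3 Treg groups it was 1.33, 1.45 and 0.48 (pregnant uterine, non-pregnant uterine, lymph node).

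**Figure D1:**
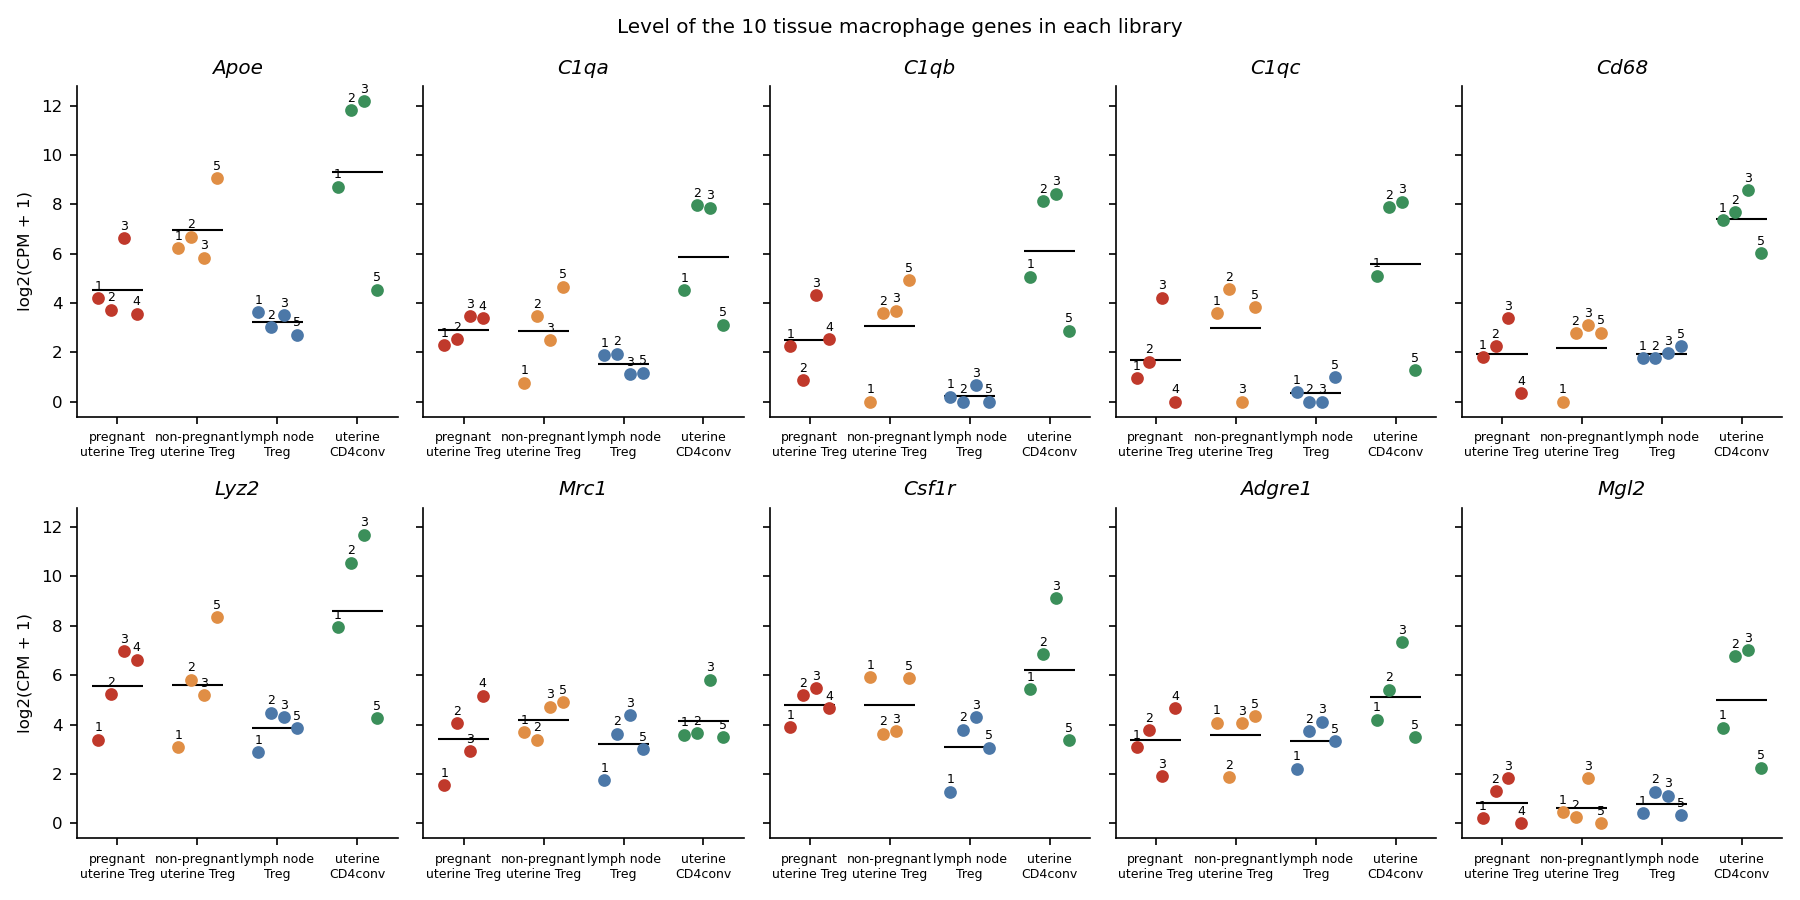
Level of each gene, as log2(CPM + 1), in the 16 libraries, by group. Points are libraries labelled with their replicate number and bars are means of the log2 values; of the CD4conv points, replicate 5 is the lowest in every panel, and only for Cd68 and Mgl2 do all CD4conv points lie above all uterine Treg points.

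Other lists in the same CD4conv pools varied by smaller factors, those of other macrophage genes included. The highest CD4conv sum was 7.23 times the lowest for 20 other macrophage receptors, adaptors and regulators. For 16 genes of resident and scavenging macrophages it was 3.85 times, with replicate 1 the lowest. Among the 10 genes singly, that ratio ran from 5.46 for Mrc1 to 209 for Apoe. The summed level of 16 plasmacytoid dendritic cell markers was 5735, 6413, 7127 and 3050 CPM in CD4conv replicates 1, 2, 3 and 5, against 258 to 625 CPM in pregnant and 116 to 544 CPM in non-pregnant uterine Treg. The 10 MHC class II and antigen-presentation genes, which mark antigen-presenting cells, summed to 4868, 13517, 15462 and 1797 CPM in the 4 CD4conv libraries. The T cell list ran the other way, at 5035, 3379, 2065 and 5057 CPM. The plasmacytoid dendritic cell and MHC class II lists thus moved with the 10 genes across CD4conv libraries, and the part of these markers in the differences between groups was not tested.

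**Figure D2:**
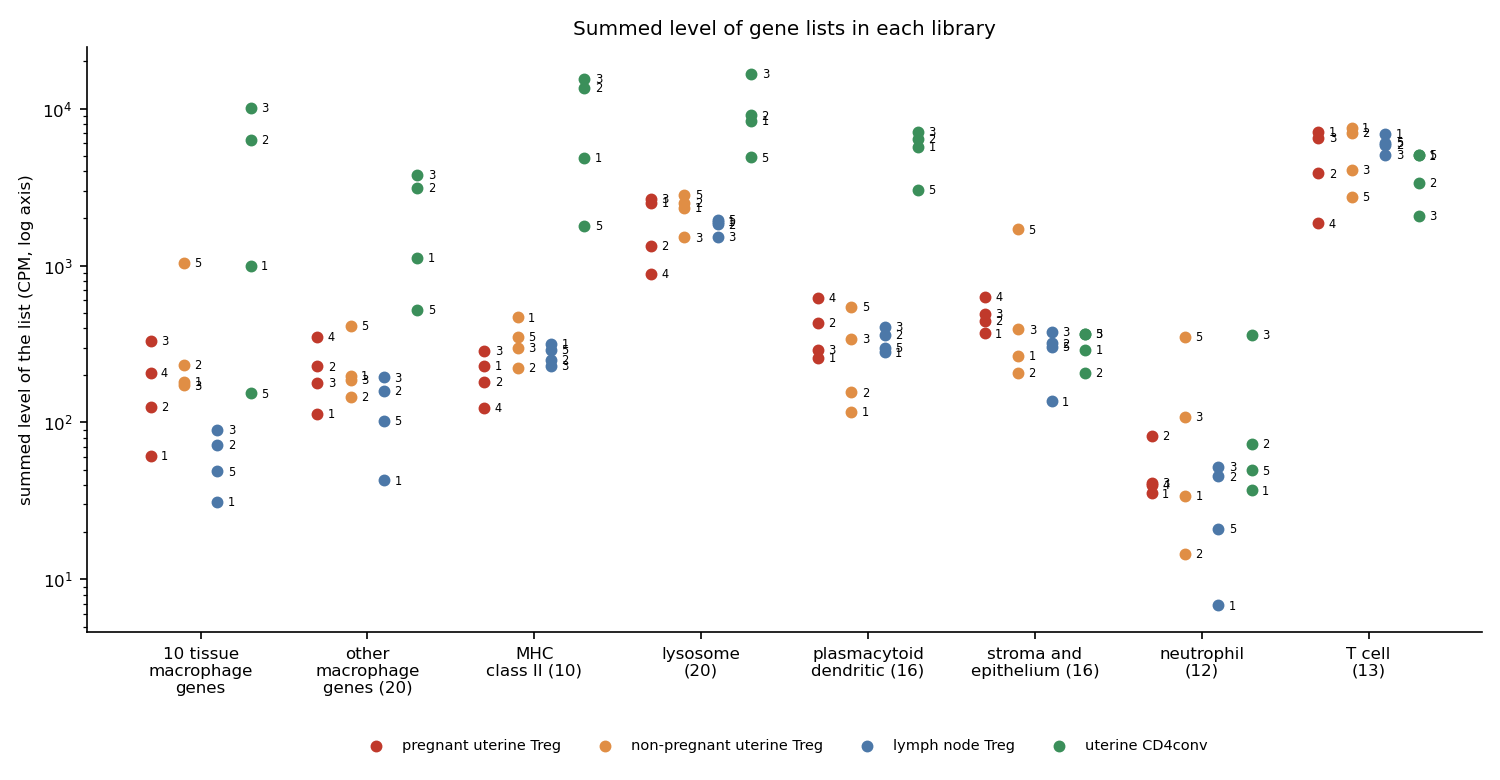
Summed level (CPM, log axis) of the 10 genes and of 7 other lists in each library, with replicate numbers; the number of genes is in brackets. The CD4conv points of the 10 genes run from 153 to 10083 CPM and those of the plasmacytoid dendritic cell list from 3050 to 7127 CPM, while non-pregnant uterine Treg 5 stands above its group for the 10 genes and for the stroma and epithelium list.

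The 3 C1q genes, whose products assemble into a single molecule, followed nearly the same course over the CD4conv libraries. C1qa stood at 3.86, 4.81, 10.01 and 9.51 CPM in pregnant uterine Treg 1 to 4, against 21.9, 247, 231 and 7.69 CPM in CD4conv 1, 2, 3 and 5. C1qb stood at 3.78, 0.84, 18.9 and 4.76 CPM in pregnant uterine Treg, against 32.7, 278, 343 and 6.38 CPM in CD4conv. C1qc stood at 0.93, 2.09, 17.6 and 0 CPM in pregnant uterine Treg, against 33.7, 234, 275 and 1.43 CPM in CD4conv. For each of the 3 genes, CD4conv 2 and 3 were far above every other library and CD4conv 5 fell among the Treg libraries.

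The balance of the 3 chains was similar in the 4 libraries with most C1q counts. C1qb made up 37.1%, 36.6% and 40.4% of the C1q counts in CD4conv 1, 2 and 3, C1qa 24.8%, 32.5% and 27.2%, and C1qc 38.2%, 30.9% and 32.4%. In pregnant uterine Treg 3, the richest in C1q of its group with 706 counts, the shares were 40.7% for C1qb, 21.5% for C1qa and 37.8% for C1qc. In CD4conv 5 only 119 C1q counts were found, and 49.6% of them were C1qa and 9.24% C1qc. In non-pregnant uterine Treg 2, with 245 C1q counts, the shares differed, at 51.8% for C1qc, 25.3% for C1qb and 22.9% for C1qa. The other Treg libraries held between 3 and 136 C1q counts, with shares that ran from 0% to 100%.

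Apoe and Lyz2 were the most abundant of the 10 genes. Per kb of exon, the scale on which genes can be set side by side, Apoe averaged 1015 ± 1075 CPM and Lyz2 965 ± 1146 CPM in CD4conv (SD, n = 4), against 161 ± 104 CPM for Cd68, 152 ± 157 CPM for C1qb and 3.47 ± 3.499 CPM for Mrc1. Apoe took 41.8% to 56.7% of the summed CPM of the 10 genes in CD4conv 1, 2 and 3. In CD4conv 5 its share was 14.5% and that of Cd68 was 41.7%. The make-up of that library therefore differed from the other 3 as well as its level.

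Pregnant uterine Treg were set against CD4conv within batch 1, a comparison in which Foxp3 status and pregnancy both differ. In pregnant uterine Treg 4 of the 10 genes were lower by edgeR at an adjusted p under 0.05 (Cd68, Mgl2, Apoe and C1qa), where 0.399% of all genes tested were lower. None was higher (0.0332% of all genes). Over the 10 genes the median log2 fold change was -4.61, and over all genes 0.07. The 4 pregnant libraries lay below the 4 CD4conv libraries for 2 genes, Cd68 and Mgl2, as they did for 3.05% of all genes.

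Cd68 gave the firmest difference. It stood at 2.47, 3.76, 9.41 and 0.28 CPM in pregnant uterine Treg, against 162, 205, 377 and 63.8 CPM in CD4conv 1, 2, 3 and 5. All pregnant libraries were thus below all CD4conv libraries, and its lowest CD4conv level, 63.8 CPM in replicate 5, was far above them. The log2 fold change was -5.65 ± 0.96 (SE; adjusted p = 0.00248, edgeR), and it was called in all 8 fits that left out 1 library of the pair of groups.

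Mgl2 stood at 0.15, 1.46, 2.57 and 0 CPM in pregnant uterine Treg, against 13.7, 108, 128 and 3.78 CPM in CD4conv. The groups did not overlap in CPM, although CD4conv 5 lay not far above pregnant uterine Treg 3. Over its length, Mgl2 was 1.03 times the background in CD4conv 5 and 1.75 times in pregnant uterine Treg 3. On that scale the groups overlapped. The log2 fold change was -6.06 ± 1.196 (adjusted p = 0.0122, edgeR), and the pooled counts were 48 in pregnant uterine Treg and 2752 in CD4conv. Its similar relative Clec10a was lower too, at 1.28 ± 1.47 CPM in pregnant uterine Treg and 44.6 ± 25.9 CPM in CD4conv (log2 -5.59 ± 1.14, adjusted p = 0.0160, edgeR). The call of Mgl2 was lost without CD4conv 2 or 3 or pregnant uterine Treg 1 or 2 (adjusted p up to 0.0812, edgeR).

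Apoe stood at 17.2, 12.3, 97.4 and 10.9 CPM in pregnant uterine Treg, against 418, 3588, 4652 and 22.3 CPM in CD4conv. Pregnant uterine Treg 3 lay above CD4conv 5, so the groups overlapped. The log2 fold change was -6.05 ± 1.28 (adjusted p = 0.0220, edgeR), and that of C1qa, given above by library, was -4.59 ± 0.99 (adjusted p = 0.0261, edgeR). Both calls were lost without CD4conv 2 or 3 or pregnant uterine Treg 1, 2 or 4, with adjusted p up to 0.120 for Apoe and 0.198 for C1qa.

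The other 6 genes did not pass. C1qb and C1qc had log2 fold changes of -4.63 ± 1.17 (adjusted p = 0.0977, edgeR) and -4.72 ± 1.39 (adjusted p = 0.247), as large as that of C1qa. Lyz2 stood at 9.49, 36.8, 123.5 and 98.2 CPM in pregnant uterine Treg, against 246, 1505, 3309 and 18.1 CPM in CD4conv (log2 -4.55 ± 1.16, adjusted p = 0.103, edgeR). Of its 4 pregnant libraries 3 exceeded CD4conv 5. Csf1r stood at 14.0, 35.7, 43.4 and 24.3 CPM in pregnant uterine Treg, against 42.4, 116, 551 and 9.38 CPM in CD4conv (log2 -2.84 ± 0.88, adjusted p = 0.308, edgeR).

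The 2 remaining receptors lay close to background in pregnant uterine Treg. Adgre1 stood at 7.49, 12.5, 2.76 and 24.3 CPM in pregnant uterine Treg, against 17.4, 41.8, 160.3 and 10.2 CPM in CD4conv (log2 -2.84 ± 0.76, adjusted p = 0.140, edgeR). Mrc1 stood at 1.93, 15.7, 6.52 and 35.0 CPM in pregnant uterine Treg, against 11.04, 11.6, 55.5 and 10.2 CPM in CD4conv (log2 -1.16 ± 0.72, adjusted p = 1.00, edgeR). For both genes the pregnant libraries with most background, 2 and 4, were the highest of their group. Over its length, Mrc1 was 0.378 to 1.46 times the background in pregnant uterine Treg and 0.912 to 7.14 times in CD4conv, and Adgre1 1.22 to 2.89 times and 1.79 to 40.6 times.

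**Figure D3:**
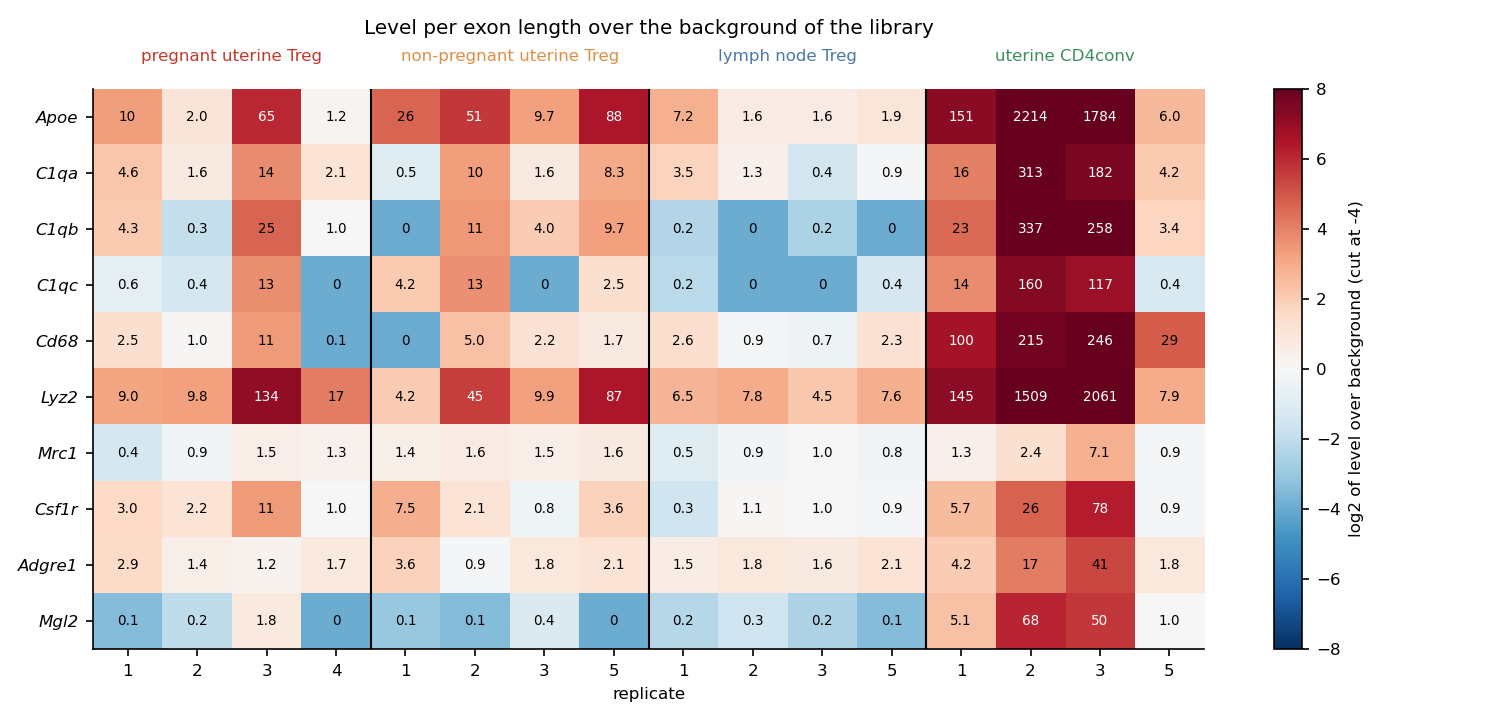
Level of each gene per kb of exon divided by the background of the same library, printed as a ratio and coloured on a log2 scale (0 is drawn at the lowest colour step). Mrc1 lies between 0.378 and 1.63 in all 12 Treg libraries, while Cd68 is 29.0 to 246 times background in the CD4conv libraries.

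The number of genes called depended on single pools. It was 1 without CD4conv 2, CD4conv 3, pregnant uterine Treg 1 or pregnant uterine Treg 2, 2 without pregnant uterine Treg 4, and 7 without CD4conv 5, against 4 with all libraries. Without pregnant uterine Treg 3, C1qb and C1qc were called besides those 4. The calls over all genes moved too, from 72 to 162 over these 8 fits, against 130 with all libraries. With all libraries 9 of the 10, and 4.79% of all genes, had an unadjusted p under 0.05 (edgeR). Without CD4conv 2 and 3 together the number called was 0 by edgeR (0.0779% of all genes were then lower). This fit was added after seeing the data, drops the 2 CD4conv pools with the highest summed level of the 10 genes and keeps only CD4conv 1 and 5. Smaller differences for these genes were built into that choice, so it only describes how far the calls rest on the 2 pools. In that fit 2 of the 10, Cd68 and Apoe, had an unadjusted p under 0.05, and the share of all genes was not counted. Cd68 kept a log2 fold change of -4.52 (adjusted p = 0.145), while Mgl2 had -2.82, Apoe -2.37 and C1qa -1.05. In the same fit Tyrobp, Ctsh, Grn and Pltp, described below, were still lower (adjusted p = 0.00410, 0.00241, 0.0222 and 0.0273, edgeR), while Fcer1g, Cd209d, Syk and Ccl12 were not (adjusted p = 0.336, 0.141, 0.113 and 1.00). The fit on the pregnant Treg and CD4conv libraries alone called 1 of the 10 genes, and leaving out all libraries with over 30% background also called 1. Over all genes the first of these fits called fewer than the main fit and the second more, as given at the end. The second keeps only replicates 1 and 3 of pregnant and 1 and 2 of non-pregnant uterine Treg, here and wherever it is used below. Among the 4723 genes whose mean level exceeded 5 times background, 7 of the 10 were left and 4 were lower, where 4.28% of that set were lower. Mgl2, Adgre1 and Mrc1 fell out, so these 4 are not the 4 of the main fit. The mean was taken over all 16 libraries, so a gene could enter through its level in CD4conv alone. The counts in this set are therefore no separate support.

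Non-pregnant uterine Treg were set against the same CD4conv libraries, a comparison within a tissue and state that crosses the sequencing batches, so the batch and the cell type cannot be told apart. Of the 10 genes 3 were lower (Cd68, Mgl2 and C1qa), where 0.485% of all genes tested were lower by edgeR, and none was higher (0.0332% of all genes). The 10 genes had a median log2 fold change of -4.28, and all genes one of -0.05. The groups did not overlap for 2 genes, Cd68 and Mgl2, against 2.65% of all genes. Because both uterine comparisons share the CD4conv libraries, their values stand side by side here without being counted as separate support.

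Cd68 stood at 0, 5.88, 7.64 and 5.94 CPM in non-pregnant uterine Treg 1, 2, 3 and 5, a log2 fold change of -5.76 ± 0.97 against CD4conv (adjusted p = 0.00251, edgeR). Mgl2 stood at 0.35, 0.18, 2.55 and 0 CPM in non-pregnant uterine Treg (log2 -7.01 ± 1.31, adjusted p = 0.00634, edgeR). Only 8 counts of Mgl2 were found in the whole group, and every library was below CD4conv 5 at 3.78 CPM, which was 1.03 times the background there. Both were called in all 8 fits that left out 1 library.

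C1qa stood at 0.71, 9.97, 4.67 and 24.3 CPM in non-pregnant uterine Treg (log2 -4.35 ± 0.99, adjusted p = 0.0387, edgeR). It was no longer called without CD4conv 2 or 3 or any single non-pregnant uterine Treg library, with adjusted p up to 0.253. Apoe stood at 74.3, 102.6, 56.5 and 532 CPM in non-pregnant uterine Treg, all above CD4conv 5 and all but replicate 5 below CD4conv 1 (log2 -4.25 ± 1.18, adjusted p = 0.152, edgeR). C1qb, C1qc and Lyz2 had log2 fold changes of -4.33 ± 1.16, -3.84 ± 1.34 and -4.31 ± 1.15, and none passed.

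Csf1r stood at 59.1, 11.4, 12.3 and 57.9 CPM in non-pregnant uterine Treg (log2 -2.78 ± 0.88, adjusted p = 0.298, edgeR), with replicates 1 and 5 above CD4conv 1 and 5. Adgre1 and Mrc1 had log2 fold changes of -2.61 ± 0.76 and -0.66 ± 0.72, and did not pass. Without CD4conv 5 the number called was 6, and it was 2 or 3 when any other library was left out. Over all genes the calls in these 8 fits ran from 72 to 170, against 156 with all libraries. Among the genes above background, which a gene could enter through CD4conv alone, the number called was 1 of 7, where 2.99% of that set were lower. With all libraries 9 of the 10, and 5.33% of all genes, had an unadjusted p under 0.05 (edgeR). Without CD4conv 2 and 3 together, a fit with the limit given above, the number called was 0 by edgeR (0.0689% of all genes were then lower). In that fit Cd68 and Mgl2 had an unadjusted p under 0.05, and the share of all genes was not counted. Cd68 then had a log2 fold change of -4.66 (adjusted p = 0.146), Mgl2 -3.76 and C1qa -0.82. DESeq2, run on all 16 libraries, called 6 of the 10 genes lower in each uterine comparison (0.825% and 0.849% of all genes for pregnant and non-pregnant uterine Treg).

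**Figure D4:**
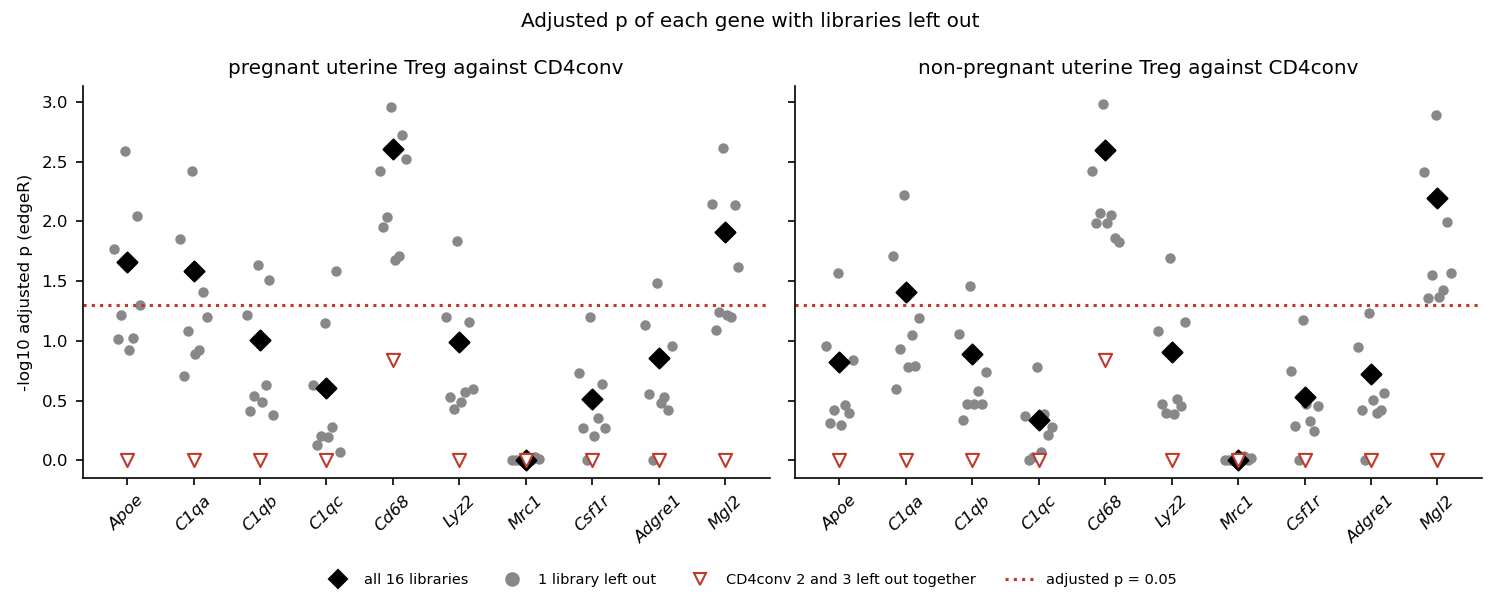
Evidence for a difference from CD4conv for each gene, as -log10 of the adjusted p (edgeR), for pregnant (left) and non-pregnant (right) uterine Treg. Diamonds use all 16 libraries, grey points leave out 1 library and triangles leave out CD4conv 2 and 3 together; all grey points of Cd68 lie above the dotted line at 0.05 in both panels, and no triangle does.

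Uterine and lymph node Treg were compared within batch 2, where the tissue differs and so does the CD25 label. No gene tested passed by edgeR, so 0 of the 10 did (0% of all genes called in either direction), while 905 genes, 5 of the 10 among them, had an unadjusted p under 0.05. Of the 10, 9 had a positive log2 fold change, all but Mgl2, whose sign turned under other scalings, and the median was 1.87 against -0.06 over all genes. DESeq2 called 2 of the 10, given below. Apoe stood at 74.3, 102.6, 56.5 and 532 CPM in non-pregnant uterine Treg, against 11.4, 7.15, 10.5 and 5.56 CPM in lymph node Treg. All uterine libraries lay above all lymph node libraries, an arrangement that 1.22% of all genes showed in this direction, and the log2 fold change was 3.99 ± 1.18 (adjusted p = 1.00, edgeR).

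C1qb was close to absent from the lymph node libraries. It stood at 0, 11.04, 11.9 and 29.7 CPM in non-pregnant uterine Treg, against 0.16, 0, 0.58 and 0 CPM in lymph node Treg. The pooled counts were 150 and 2, a ratio of shares of 82.3 with an exact 95% interval of 22.4 to 686 that covers counting error only. The log2 fold change was 5.90 ± 1.58 (adjusted p = 0.967, edgeR), and the zero in non-pregnant uterine Treg 1 makes the groups overlap. A count of 0 there allows up to 1.06 CPM.

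C1qc gave 185 counts in non-pregnant uterine Treg and 6 in lymph node Treg, a ratio of 33.9 (15.3 to 93.4). It stood at 10.97, 22.6, 0 and 13.4 CPM in the uterine libraries, so the pool without C1qb was not the pool without C1qc. Lyz2 stood at 7.43, 55.6, 35.7 and 324 CPM in non-pregnant uterine Treg, against 6.35, 21.4, 18.6 and 13.4 CPM in lymph node Treg (log2 2.52 ± 1.07, adjusted p = 1.00, edgeR). DESeq2 called Apoe (log2 4.20, adjusted p = 0.0489) and C1qb (log2 6.22, adjusted p = 0.0332) as higher in uterine Treg, where it called 0.0339% of all genes higher.

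Non-pregnant uterine Treg 5 stood above the rest of its group. Its summed level of the 10 genes was 1036 CPM, against 181, 231 and 172 CPM in replicates 1, 2 and 3. The same library also stood apart for other cells: the stroma and epithelium list summed to 1700 CPM, against 207 to 391 CPM in the other 3, and the neutrophil list to 351 CPM, against 14.6 to 108 CPM. Its T cell list was the lowest of the group at 2735 CPM and its background share was 34.9%. Without it the log2 fold change of Lyz2 was 1.41 and that of Apoe 3.15, and the part of these other markers was not tested.

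C1qa stood at 2.70, 2.86, 1.16 and 1.26 CPM in lymph node Treg, below every pregnant uterine Treg library. Over background they overlapped, at 3.50 times in lymph node Treg 1 and 1.62 and 2.12 times in pregnant uterine Treg 2 and 4. Several other genes lay near background in lymph node Treg. Mrc1 was 0.504 to 0.998 times and Csf1r 0.334 to 1.06 times the background over their lengths, and Mgl2 at most 0.325 times. Cd68 stood at 2.38, 2.38, 2.91 and 3.79 CPM, 0.744 to 2.55 times background. Lyz2 alone of the 10 was at least 4.55 times background in every lymph node library, and its relative Lyz1 stood at 6.20 ± 3.64 CPM there, a sum of 66 counts over the group.

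Pregnant and non-pregnant uterine Treg were compared to ask what changes in early pregnancy. The groups were sequenced in different batches, so pregnancy and batch cannot be told apart. No gene passed by edgeR (0% of all genes in either direction), and of the 822 genes with an unadjusted p under 0.05 none was among the 10. DESeq2 called none of the 10 either, with 0.0237% of all genes lower and 0.0166% higher. Of the 10, 8 had a negative log2 fold change, all but Cd68 and Mgl2, with a median of -0.24 against 0.10 over all genes.

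Apoe had the widest gap, at 34.5 ± 42.1 CPM in pregnant and 191 ± 228 CPM in non-pregnant uterine Treg (SD, n = 4 each), a log2 fold change of -1.80 ± 1.06 (adjusted p = 1.00, edgeR). Pregnant uterine Treg 1, 2 and 4 lay below every non-pregnant library, and pregnant uterine Treg 3 at 97.4 CPM lay among them. Lyz2 averaged 67.0 ± 52.9 CPM in pregnant and 106 ± 147 CPM in non-pregnant uterine Treg (log2 -0.23 ± 1.00), a sign that turned to 0.89 without non-pregnant uterine Treg 5. Cd68 averaged 3.98 ± 3.90 CPM in pregnant and 4.86 ± 3.34 CPM in non-pregnant uterine Treg (log2 0.11 ± 0.83, with the sign turned under RLE scaling, library totals, DESeq2 and with genes above background alone).

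Within pregnant uterine Treg, replicate 3 was the highest for 8 of the 10 genes. That library was also the deepest, with the lowest background share, at 8.68%. Replicate 4 was the highest for Mrc1 and Adgre1, with the largest background share, at 53.5%. Replicates 2 and 4 held 1.46 and 0 CPM of Mgl2 and replicate 3 held 2.57 CPM.

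**Figure D5:**
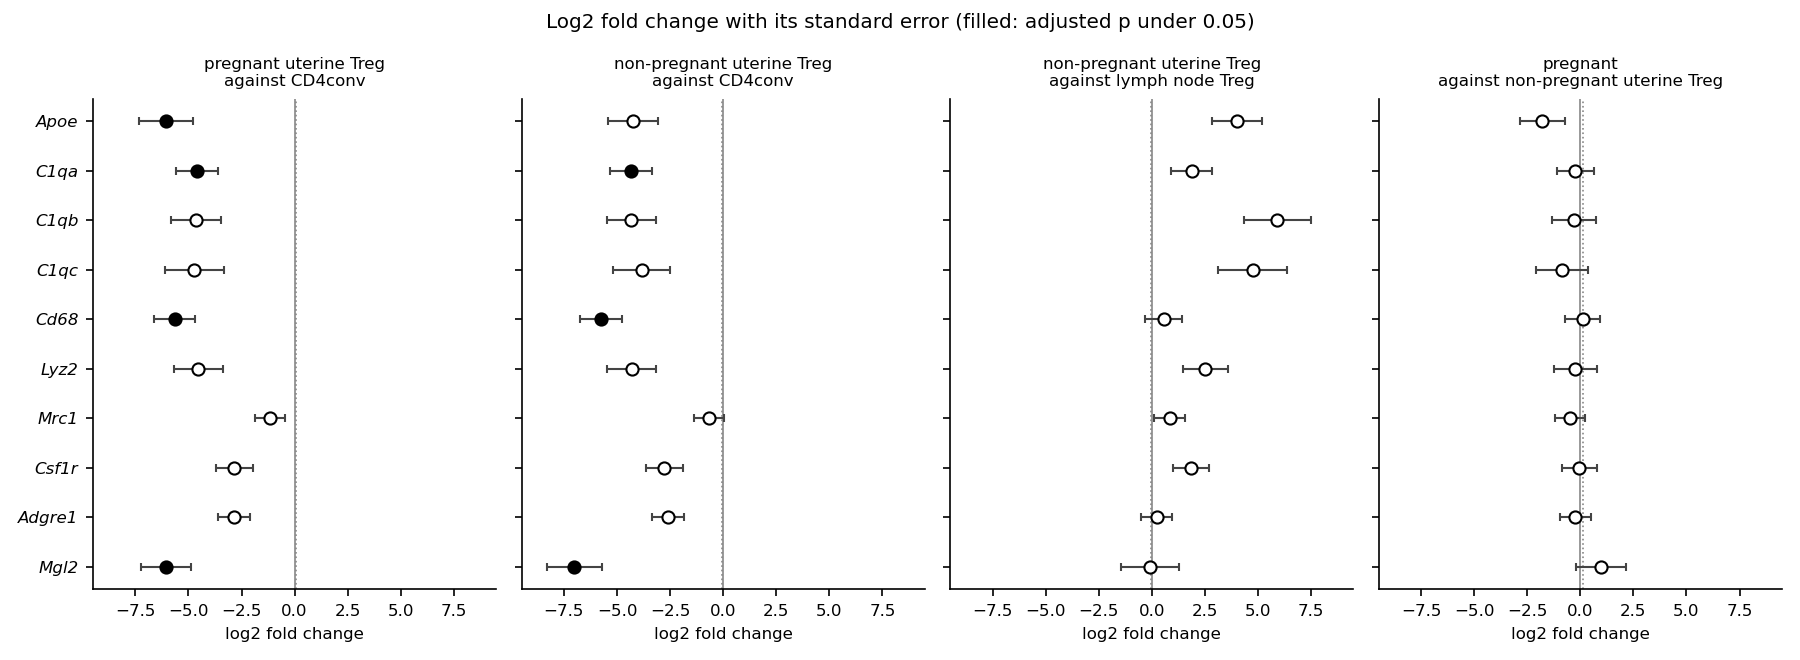
Log2 fold change of each gene with its standard error in the 4 comparisons (edgeR over 30096 genes); filled points have an adjusted p under 0.05 and the dotted line is the median of all genes. Against CD4conv the points run from -7.01 to -0.66, with 4 and 3 filled, and no point is filled in the comparisons among Treg.

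Genes related by role were read from 16 lists, with calls by edgeR adjusted over all genes tested. With all libraries none of their genes was higher in uterine Treg than in CD4conv, where only 0.0332% of all genes were higher in each comparison. Of 20 other macrophage receptors, adaptors and regulators, 5 were lower in pregnant and 5 in non-pregnant uterine Treg than in CD4conv, with median log2 fold changes of -3.28 and -3.42. Tyrobp, the adaptor DAP12 of activating receptors on myeloid cells, averaged 5.37 ± 3.09 CPM in pregnant uterine Treg and 774 ± 418 CPM in CD4conv (log2 -7.31 ± 0.94, adjusted p = 0.000240, edgeR). Fcer1g, the shared gamma chain of Fc receptors, averaged 5.25 ± 3.29 CPM in pregnant uterine Treg and 226 ± 188 CPM in CD4conv (log2 -5.57 ± 0.86, adjusted p = 0.00110, edgeR). Plasmacytoid dendritic cells also express both.

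These counts moved with the pools left out, as the calls over all genes did. For pregnant uterine Treg the 5 became 2 without CD4conv 2 or without pregnant uterine Treg 2 or 3, 3 without CD4conv 3, and 8 without CD4conv 5. For non-pregnant uterine Treg they became 2 without CD4conv 2 or 3 or non-pregnant uterine Treg 1, 2 or 3, 3 without non-pregnant uterine Treg 5, and 8 without CD4conv 5. Tyrobp and Fcer1g were called in all 8 fits of each comparison that left out 1 library. Without CD4conv 2 and 3 together the count was 1 in each comparison, and Fcer1g was not called, with log2 fold changes of -3.33 (adjusted p = 0.336) in pregnant and -2.87 (adjusted p = 0.686) in non-pregnant uterine Treg. Tyrobp was still lower in both (adjusted p = 0.00410 and 0.00951, edgeR). Over all settings tried, the counts ran from 1 to 9 and from 1 to 8.

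Of 20 lysosomal genes, 3 were lower in pregnant and 4 in non-pregnant uterine Treg. Among them were Ctsh, a cathepsin gene, at 15.9 ± 6.44 CPM in pregnant uterine Treg and 563 ± 260 CPM in CD4conv (log2 -5.60 ± 0.66, adjusted p = 7.44e-05, edgeR), and Grn, which encodes progranulin, at 37.5 ± 23.6 CPM in pregnant uterine Treg and 1535 ± 692 CPM in CD4conv (log2 -5.36 ± 0.80, adjusted p = 0.000871). The 3 became 5 without CD4conv 5, 9 with genes above background, 8 with library totals and 7 by DESeq2, and the 4 became 8 with genes above background. Of 16 lipid-handling genes 1 was lower in both comparisons, the phospholipid transfer protein gene Pltp, with log2 fold changes of -5.03 ± 0.77 and -5.34 ± 0.79 (adjusted p = 0.000983 and 0.000793, edgeR). Pltp was called in all 8 fits of each comparison that left out 1 library, and Apoe in 3 and in 1 of the 8. The lipid count was 2 and 2 with genes above background, and 3 in non-pregnant uterine Treg with libraries of at most 30% background.

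Of 14 myeloid C-type lectins, relatives of Mgl2 and Mrc1, 4 were lower in pregnant and 3 in non-pregnant uterine Treg. Cd209d averaged 3.38 ± 1.52 CPM in pregnant uterine Treg and 92.7 ± 39.5 CPM in CD4conv (log2 -5.08 ± 0.80, adjusted p = 0.00132, edgeR). The 4 became 2 without CD4conv 3 or pregnant uterine Treg 2, and over all settings the counts ran from 0 to 5 in each comparison, with 0 without CD4conv 2 and 3 together. Of 14 ligands and kinases around Csf1r, 3 and 5 were lower, among them the tyrosine kinase gene Syk with log2 fold changes of -4.22 ± 0.71 and -5.50 ± 0.76 (adjusted p = 0.00222 and 0.000431, edgeR). The 3 became 1 without CD4conv 2 or 3 or pregnant uterine Treg 3 and 5 without CD4conv 5, and the 5 became 1 without CD4conv 3 and 2 without CD4conv 2 or non-pregnant uterine Treg 1, 2 or 3. Syk was called in all 8 fits of each comparison that left out 1 library. With genes above background both counts were 0, and without CD4conv 2 and 3 together they were 0 and 1. How many of the 14 remain among the genes above background was not counted, so a count of 0 there can reflect genes left out.

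None of 15 other complement genes passed by edgeR in either comparison, and DESeq2 called 1 in each. At an unadjusted p under 0.05 (edgeR) there were 2 and 3, against 4.79% and 5.33% of all genes. The edgeR count was 1 for pregnant uterine Treg without CD4conv 1, CD4conv 5 or pregnant uterine Treg 3, and 1 for non-pregnant uterine Treg without replicate 5. With libraries of at most 30% background it was 3 for non-pregnant uterine Treg, and with genes above background 1 for pregnant uterine Treg. Of 16 genes of resident and scavenging macrophages, 1 was lower in pregnant uterine Treg, the chemokine gene Ccl12 (log2 -7.32 ± 1.66, adjusted p = 0.0422, edgeR), and it was called in 3 of 8 fits, failing without CD4conv 2 or 3 or pregnant uterine Treg 1, 3 or 4. With all libraries none of these 16 was lower in non-pregnant uterine Treg by edgeR or DESeq2. An unadjusted p under 0.05 (edgeR) was found for 4 of them, against 5.33% of all genes. With libraries of at most 30% background 2 were lower.

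Markers of other cells gave these counts in the same comparisons. Of 16 plasmacytoid dendritic cell genes, 9 were lower in pregnant and 13 in non-pregnant uterine Treg, and of 10 MHC class II genes 6 and 5. Without CD4conv 2 and 3 together these counts were 5 and 5, and 3 and 1. With libraries of at most 30% background the MHC class II counts were 1 and 3. The plasmacytoid dendritic cell counts were 14 and 13 by DESeq2. They were 8 and 6 with genes above background, where the number of list genes left was not counted. Irf8, a transcription factor of dendritic cells, averaged 29.2 ± 9.27 CPM in pregnant uterine Treg and 1039 ± 340.3 CPM in CD4conv (log2 -5.31 ± 0.71, adjusted p = 0.000325, edgeR). Of 12 monocyte genes 2 and 3 were lower, of 13 conventional dendritic cell genes 2 and 2, and of 10 B cell genes 1 and 1. The lists are not separate: Cd209a, lower in both comparisons, is counted among the conventional dendritic cell genes and among the myeloid C-type lectins. For pregnant uterine Treg the monocyte count became 1 without CD4conv 2 or pregnant uterine Treg 1 or 3, the conventional dendritic cell count 1 without CD4conv 3 or pregnant uterine Treg 1 or 2, and the B cell count 0 without CD4conv 2 or 3 or pregnant uterine Treg 1, 2 or 3. For non-pregnant uterine Treg the conventional dendritic cell count became 1 without CD4conv 1, 2 or 3 or non-pregnant uterine Treg 1, 2 or 5. None of 8 NK cell, 10 neutrophil, 15 stroma and epithelium or 13 T cell genes passed by edgeR in these comparisons. At an unadjusted p under 0.05 (edgeR) there were 3 and 5, 2 and 2, 0 and 2, and 0 and 0 of them, against 4.79% and 5.33% of all genes. DESeq2 called 1 and 3 of the NK cell genes and none of the others. Without non-pregnant uterine Treg 2, 2 NK cell genes were lower in that group. Over all settings the counts in pregnant and non-pregnant uterine Treg ran from 0 to 3 and 1 to 3 for monocyte genes, 0 to 3 and 0 to 5 for conventional dendritic cell genes, 0 to 1 in both for B cell genes and 0 to 1 and 0 to 3 for NK cell genes. They stayed at 0 for the neutrophil, stroma and epithelium and T cell lists.

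Genes whose course over the 16 libraries was nearest to that of C1q were found by the root mean square difference of centred log2(CPM + 1) values, over 14749 protein-coding genes with a median difference of 2.56. Near ones outside the 10 genes were Wfdc17 at 0.85, the lectin gene Lgals3 at 1.08, Fcer1g at 1.13, Tmem176a at 1.16, the chemokine gene Ccl6 at 1.2, and Fcgrt, Cd14, Ifitm3 and Plekho1 at 1.21 each. Among the 10 genes, Lyz2 differed by 0.90 and Apoe by 0.95, within the first 6 ranks, while Mgl2 at 1.34, Cd68 at 1.45 and Csf1r at 1.47 ranked 28, 44 and 50. Adgre1 at 1.93 ranked 377 and Mrc1 at 2.19 ranked 1271.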

How the data were processed

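RNA was measured in 16 libraries of sorted T cells, 4 in each of 4 groups, with groups taken from the sample labels. Per the labels' protocols, cells were enriched by CD4 selection, sorted, and converted with SMART-Seq v4 and Nextera XT for paired reads, without a step that marks strand. The deposited values are raw counts of reads per gene, in 1 table. Per the submitters' processing notes, Trimmomatic, HISAT2, SAMtools, featureCounts and DESeq2 were used with GRCm38; their versions and parameters were not given in the sources used here. How reads shared by similar or overlapping genes were assigned therefore cannot be checked, and it could change the levels of such genes.

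From the deposited counts, CPM was computed on library totals. Tests used edgeR 4.0.16 (R 4.3.3): filterByExpr, TMM scaling and the quasi-likelihood F test, in 1 model of 4 groups over all 16 libraries (12 residual degrees of freedom, 30096 genes), with Benjamini-Hochberg adjustment over all genes and a threshold of 0.05. Log2 fold changes are edgeR's, with a standard error from the F statistic. No fit included batch, which is confounded with group in the comparisons that cross batches. Background was read from olfactory and vomeronasal receptor genes, per base of exon in GENCODE M21. Levels carry counting error set by the totals, and intervals and limits from 3 counts cover counting error only. Nothing says that pools of a group are independent beyond their labels, so p-values measure the spread between these pools. Chi-square per degree of freedom between replicates was at least 5.37, so none was a copy of another.

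The alternatives were RLE scaling, library totals, other filters, DESeq2 1.42.0, the compared groups alone, a replicate block and each library left out; leaving out CD4conv 2 and 3 together, or the libraries with over 30% background, was added after seeing the data. The genes and lists were chosen with earlier results of these data known. Named from each list are genes past the threshold, at most 4 by adjusted p and above 5 CPM in the group with more, or its most abundant genes; the text gives some of these. The 10 genes nearest to C1q were taken among protein-coding genes averaging at least 5 CPM, and 1 of them is not reported here. Figures were drawn with matplotlib 3.10.9.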

Additional observations from a re-analysis of the deposited data

Results flagged for a closer look

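In groups of 4 libraries, a library was singled out where its gap to the nearest other exceeded Dixon's 95% critical share of the group's range. The test was run on 44 groups, and chance singles out about 1 in 20. Apoe in pregnant uterine Treg 3 stood at 97.4 CPM, against 10.9 to 17.2 CPM in the other 3 libraries. C1qc in the same library stood at 17.6 CPM, against 0 to 2.09 CPM. Apoe in non-pregnant uterine Treg 5 stood at 532 CPM, against 56.5 to 103 CPM. Lyz2 in that library stood at 324 CPM, against 7.43 to 55.6 CPM, and the sum of the 10 genes at 1036 CPM, against 172 to 231 CPM. Mrc1 in CD4conv 3 stood at 55.5 CPM, against 10.2 to 11.6 CPM. Mgl2 in non-pregnant uterine Treg 3 stood at 2.55 CPM, against 0 to 0.35 CPM, a difference of few reads.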

How the results depend on the processing

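With all libraries, edgeR called 130 genes (10 higher, 120 lower) in pregnant uterine Treg against CD4conv and 156 (10 higher, 146 lower) in non-pregnant uterine Treg against CD4conv. Genes above background alone gave 396 and 288, DESeq2 311 and 322, libraries with at most 30% background 230 and 427, and leaving out CD4conv 2 and 3 together 27 and 24. The fit on the compared groups alone gave 78 in pregnant uterine Treg. Scaling by library totals gave 29 higher and 119 lower, and 28 higher and 91 lower, so the share of higher calls was 19.6% and 23.5%, against 7.69% and 6.41%. Leaving out 1 library gave 72 to 162 and 72 to 170. In non-pregnant uterine against lymph node Treg the count of 0 became 61 with genes above background, 31 by DESeq2 and 2 with at most 30% background. In pregnant against non-pregnant uterine Treg it became 17 by DESeq2 and 4 with at most 30% background.

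Of the 10 genes, 4 were called in pregnant uterine Treg against CD4conv. This became 1 with the compared groups alone, 1 with at most 30% background, 0 without CD4conv 2 and 3, and 1 to 7 leaving out 1 library. The 3 called in non-pregnant uterine Treg became 1 with genes above background (only 7 of the 10 are in that set), 6 by DESeq2, 0 without CD4conv 2 and 3, and 2 to 6 leaving out 1 library. DESeq2 called 2 in non-pregnant uterine against lymph node Treg. The cause of these changes was not tested.

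Without CD4conv 2 and 3, the log2 fold changes of Mrc1 and Csf1r reversed to 0.11 and 0.19 in pregnant and to 0.63 and 0.22 in non-pregnant uterine Treg. In non-pregnant uterine against lymph node Treg, Mgl2 (-0.09) became 0.037 with RLE, 0.056 with totals and 0.022 with DESeq2. In pregnant against non-pregnant uterine Treg, Cd68 (0.11) became -0.081 with RLE, -0.23 with totals, -0.32 with genes above background and -0.10 with DESeq2, and with at most 30% background C1qa became 0.32, C1qb 0.96 and Lyz2 1.08. Leaving out 1 library, Mrc1 ran from -0.96 to 0.27 in non-pregnant uterine Treg against CD4conv. Against lymph node Treg, Adgre1 ran from -0.02 to 0.53 and Mgl2 from -1.65 to 0.30. In pregnant against non-pregnant uterine Treg the ranges were -0.80 to 0.23 for C1qa, -1.90 to 0.11 for C1qb, -3.76 to 0.064 for C1qc, -1.12 to 0.57 for Cd68, -1.25 to 0.89 for Lyz2, -0.66 to 0.53 for Csf1r, -0.58 to 0.032 for Adgre1 and -0.61 to 2.52 for Mgl2. Over all fits, 528 log2 fold changes of the 10 genes kept direction and side of the threshold, 38 lost the call, 16 gained it and 40 reversed.

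Library totals shifted the median of all genes by 0.28, 0.34 and 0.15 in the first 3 comparisons, and RLE by 0.13, 0.19 and 0.12. Replicate numbers are shared by 3 groups, and same-numbered libraries correlated between -0.40 and 0.37. The same number was the best match for CD4conv 1 and 2 with non-pregnant uterine Treg and for CD4conv 5 with lymph node Treg. This cannot show whether same-numbered pools came from the same mice, so pairing stays unknown and the main fit has no pairs. With the replicate block, 222 genes and 2 of the 10 were called in non-pregnant uterine Treg against CD4conv, and 0 genes against lymph node Treg. Depth limits low values: a count of 0 allows up to 0.20 (pregnant uterine Treg 3) to 1.75 CPM (lymph node Treg 3).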
